A study of Mus musculus with 12 samples.

Results

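The 10 genes described here belong to the circadian clock: Arntl, Per1, Per2, Per3, Cry1, Cry2, Nr1d1, Nr1d2, Dbp and Ciart. They were chosen by symbol, matched to their mouse gene identifiers on GRCm38, and all 10 were among the 19150 genes that passed the filter on low counts. RNA was sequenced from cerebral vessels of the forebrain in 12 libraries, 3 for each of 4 groups: mice given PBS, and mice given LPS at 10 mg/kg by the intraperitoneal route and taken 15 min, 30 min or 4 h later. LPS, lipopolysaccharide of the bacterial outer membrane, was used to bring about acute systemic inflammation. All mice were wild type, of the strain C57BL6 and 2 to 3 months old, and each library pooled the vessels of 1 male and 1 female mouse. The brains were perfused with cold PBS, the meninges were removed, and the vessels were collected on a mesh after the homogenate had been spun in dextran. Mice were kept on a light-dark cycle, but the hour of injection and the hour at which each group was killed are not stated in the sources used here. For genes that vary over the day, the effect of LPS and of the time of day therefore cannot be told apart in any of the comparisons with PBS. The time from injection to killing is not stated for the PBS mice. Passing effects of injection and handling therefore cannot be told apart from those of LPS either.

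In the mammalian clock, ARNTL (also called BMAL1) pairs with CLOCK and switches on genes that carry an E-box in their promoters, among them the Per and Cry genes, whose proteins return to block ARNTL and CLOCK. Another loop runs through NR1D1 and NR1D2 (REV-ERB alpha and beta), which are themselves switched on by ARNTL and CLOCK and repress Arntl through RORE sites. Dbp and Ciart are direct targets of ARNTL and CLOCK, DBP acts on genes with a D-box, and CIART is a further repressor of the ARNTL and CLOCK pair. In most mouse tissues, blood vessels included, Arntl and the group of Dbp, Nr1d1 and the Per genes are high at opposite times of day. Per1 and Per2 can also be switched on rapidly by signals from outside the clock, such as glucocorticoids and cAMP.

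RefSeq promoter windows of GRCm38.p6, from 250 bases before to 50 bases after a gene start, were at hand for 9 of the 10 genes (Per2 not among them), with 11 windows in all. They are shown because the members are known for regulating each other through these short sites. The letters searched, on both strands, were the E-box CACGTG, the D-box TTATGTAA or TTACGTAA, the RORE core TAGGTCA, the cAMP response element TGACGTCA, and the half-site AGAACA of the glucocorticoid receptor. In the windows below, written 5′ to 3′ on the strand of the gene, capitals mark the E-boxes of Ciart, Per1 and Cry1, the D-boxes of Per3 and the RORE core of Arntl.
Ciart (chr3:95882179-95882478, - strand): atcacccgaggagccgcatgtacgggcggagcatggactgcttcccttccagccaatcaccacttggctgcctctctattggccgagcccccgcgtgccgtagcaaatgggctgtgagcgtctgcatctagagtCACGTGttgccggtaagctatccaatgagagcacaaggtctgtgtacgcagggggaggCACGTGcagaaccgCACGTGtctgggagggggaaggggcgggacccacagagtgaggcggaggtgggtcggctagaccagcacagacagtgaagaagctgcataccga
Per1 (chr11:69098699-69098998, + strand): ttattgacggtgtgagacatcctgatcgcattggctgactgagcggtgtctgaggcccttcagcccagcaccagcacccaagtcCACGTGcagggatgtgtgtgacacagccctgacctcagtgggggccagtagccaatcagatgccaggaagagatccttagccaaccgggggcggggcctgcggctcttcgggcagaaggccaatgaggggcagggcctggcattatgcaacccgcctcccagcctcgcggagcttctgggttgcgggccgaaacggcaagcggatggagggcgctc
Cry1 (chr10:85185005-85185304, - strand): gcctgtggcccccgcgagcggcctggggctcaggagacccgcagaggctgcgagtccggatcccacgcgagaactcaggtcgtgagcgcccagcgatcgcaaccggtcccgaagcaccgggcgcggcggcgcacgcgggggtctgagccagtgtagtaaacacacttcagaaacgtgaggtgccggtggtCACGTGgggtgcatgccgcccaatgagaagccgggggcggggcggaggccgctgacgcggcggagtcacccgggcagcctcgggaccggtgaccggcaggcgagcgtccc
Per3 (chr4:151044616-151044915, - strand): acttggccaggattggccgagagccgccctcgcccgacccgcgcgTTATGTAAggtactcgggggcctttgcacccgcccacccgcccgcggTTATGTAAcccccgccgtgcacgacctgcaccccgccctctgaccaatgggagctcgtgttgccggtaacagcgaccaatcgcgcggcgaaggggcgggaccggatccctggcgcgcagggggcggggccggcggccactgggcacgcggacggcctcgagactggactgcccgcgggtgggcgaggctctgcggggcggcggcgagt
Arntl (chr7:113207261-113207560, + strand): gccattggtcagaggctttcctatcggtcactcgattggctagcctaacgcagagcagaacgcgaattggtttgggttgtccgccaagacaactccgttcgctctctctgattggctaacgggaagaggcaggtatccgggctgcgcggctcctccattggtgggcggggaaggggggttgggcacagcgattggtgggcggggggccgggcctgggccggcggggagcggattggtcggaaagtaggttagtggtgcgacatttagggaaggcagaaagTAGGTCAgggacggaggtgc
Ciart held 3 E-boxes in its window, beginning at bases 135, 193 and 207, and Per1 and Cry1 held 1 each, at bases 85 and 191. Of the 32851 windows in the table, 7.15% held an E-box and 0.0883% held 3 or more. The Per1 window with the E-box belongs to a start inside the annotated span of the gene. The D-boxes of Per3 began at bases 46 and 93, against 1.06% of all windows with a D-box. The RORE core of Arntl began at base 281, in the transcribed part of the window, and 2.61% of all windows held one. No searched motif overlapped another in these windows, and no window of a member held TGACGTCA (1.79% of all windows) or AGAACA (19.0%). The other windows of the members held none of the letters searched, which says only that these exact letters are not in these windows.

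Total estimated fragments were 18.3 to 25.9 M per library. Members had 106 to 7920 counts in a library, and the coefficient of variation of a member within a group ran from 0.671% to 19.1% with a median of 3.08%. CPM below are counts per 1 M fragments scaled by TMM, which sets libraries to a common level over most genes, and are used to compare libraries. TPM, which also take transcript length into account, carry no TMM factors. A difference in TPM between groups therefore also holds the shift in scaling. Cry2, for example, had a mean of 18.3 TPM in PBS and 8.58 at 4 h, with 41.8 and 38.9 CPM. Log2 fold changes with their SE come from edgeR. The null of the test was a change of at most 0.58 on the log2 scale (1.5-fold) in either direction. A gene was called when the adjusted p of this test (Benjamini-Hochberg, all genes tested) was under 0.05. The TMM factors averaged 0.717 at 4 h and 1.17 in PBS: without them the median of all genes stood at -0.71 on the log2 scale at 4 h, where with them it stood at -0.01, and at -0.17 instead of -0.01 at 30 min. Of 6 markers of endothelium all 6 were found, with a summed level of 8394 to 8683 CPM in PBS, and all 5 pericyte markers summed to 3476 to 3549 CPM.

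Markers of other cells moved with the groups. In the smooth muscle list 3 of 5 genes were lower at 15 min, where the sum was 1588 to 1613 CPM against 2470.0 to 2514 in PBS, 2248 to 2300.1 at 30 min and 2423 to 2477 at 4 h. In the neuron list 2 of 5 genes were higher at 15 min, with 479.8 to 491 CPM against 307 to 319 in PBS, 295 to 296 at 30 min and 239 to 248 at 4 h. All 5 skeletal muscle genes were higher at 30 min, with 137 to 148 CPM against 8.97 to 13.8 in PBS, 11.1 to 13.3 at 15 min and 17.98 to 24.4 at 4 h. At 4 h the endothelial sum was 5937 to 5990.4 CPM with 4 of 6 genes lower and 1 higher. All 3 erythroid genes were higher at 4 h, with 4442 to 4649 CPM against 1480.5 to 1596 in PBS, 2268 to 2339 at 15 min and 2854 to 2975 at 30 min. All 4 neutrophil genes that passed the filter, of 5 in the list, were higher at 4 h, with 171 to 175 CPM against 4.08 to 4.89 in PBS. The astrocyte sum was 362 to 390.0 CPM in PBS, 242 to 271 at 15 min, 402 to 431 at 30 min and 929.8 to 978 at 4 h. Of its 5 genes, 1 was lower at 15 min, 2 were higher at 30 min and 3 were higher at 4 h, so not all shared the rise of the sum. Choroid plexus and ependymal genes, 4 of 4 detected, summed to 10296 to 10726 CPM in PBS, 9199 to 9691 at 15 min, 13631 to 13969 at 30 min and 17320.3 to 18214 at 4 h. Of these genes, 1 was higher at 30 min and 3 at 4 h. Microglia markers summed to 100.2 to 107 CPM in PBS and 62.0 to 66.7 at 4 h with 3 of 5 genes lower, fibroblast markers to 434 to 458 and 299 to 311 with 2 of 5 lower, and oligodendrocyte markers to 219 to 226 and 212 to 223 with 3 of 5 lower. In no group was a marker of these lists that passed the filter at 0 in all libraries. The part of these cells in the values of the clock genes was not tested. In bulk RNA, fewer cells of a type and less RNA per cell cannot be told apart.

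Against PBS, the 15 min and 30 min libraries had less Arntl and more of most of its targets and repressors, and at 4 h the members had parted ways. At 15 min, 7 members were higher (Per1, Per2, Per3, Cry1, Nr1d2, Dbp and Ciart), Arntl was lower, and Cry2 and Nr1d1 did not pass the test. At 30 min the same call held for 6 higher members, Per3 no longer passing, and for Arntl. At 4 h, Per1 and Cry1 were higher, Per3, Nr1d1 and Dbp were lower, and the other 5 did not pass. Of all tested genes, 3.35% were called higher at 15 min, 3.80% at 30 min and 19.1% at 4 h, and 0.898%, 0.815% and 13.9% were called lower. The counts of members at the earlier times thus stood far above the shares of all genes, in the lower direction through Arntl alone. At 4 h the 2 higher of 10 were close to the share of all genes and the 3 lower of 10 somewhat above it. The members were chosen with earlier results of these data known, so these counts are a description and no unbiased measure of enrichment. The members had a median log2 fold change of 0.94 at 15 min, 0.84 at 30 min and -0.08 after 4 h, against -0.0021 for all genes at 15 min and -0.01 at both later times. The median absolute change of the members was 1.16, 1.16 and 0.72 at the 3 times, against 0.22, 0.22 and 0.59 for all genes. With scaling by library total alone, which put the median of all genes at -0.71, the split at 4 h was 1 higher and 6 lower. The shares of all genes above are those with TMM and give no background for this split. The 3 comparisons share the PBS libraries.

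**Figure D1:**
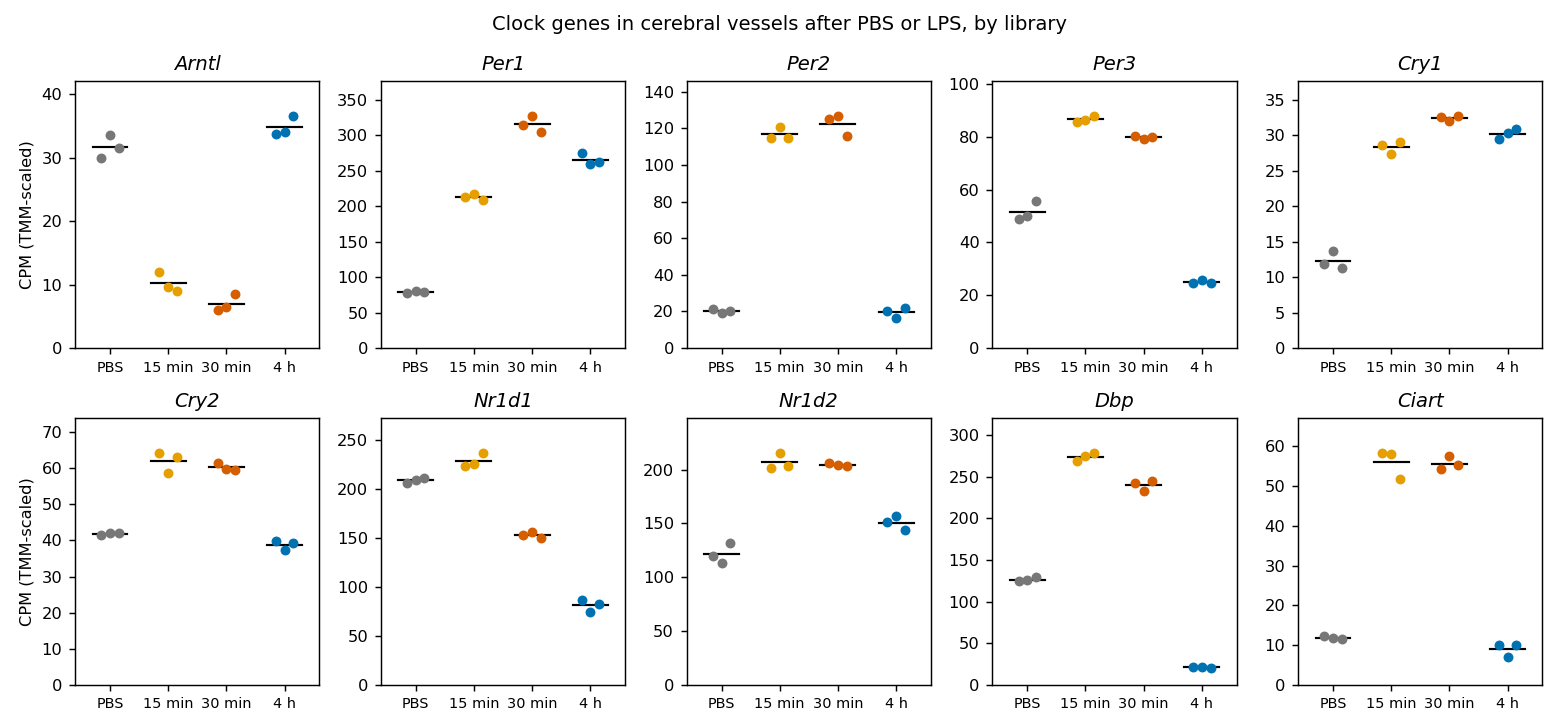
Each panel shows 1 clock gene, with the TMM-scaled CPM of each library as a point (3 per group) and the group mean as a line, on linear axes that start at 0. Arntl is low at 15 and 30 min, where Per2, Dbp and Ciart are high, and Dbp is lowest at 4 h, with 20.6 to 21.8 CPM.

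Arntl, the activator of the loop, lies on chromosome 7 at 113207465 to 113314126, plus strand. Its CPM were 29.9, 33.6 and 31.6 in PBS, 12.004, 9.69 and 9.02 at 15 min, 5.94, 6.54 and 8.49 at 30 min and 33.8, 34.0 and 36.6 at 4 h. The libraries of both earlier times were below all of PBS, each 30 min library was below each of 15 min, and the 4 h libraries lay just above PBS. The log2 fold change from PBS was -1.63 ± 0.101 (SE) at 15 min (edgeR adjusted p = 6.63e-09) and -2.18 ± 0.109 at 30 min (edgeR adjusted p = 1.25e-11), which left 0.324 and 0.220 of the PBS level. At 4 h it was 0.13 ± 0.0949 and did not pass, and with library totals alone it changed sign to -0.57. From 30 min to 4 h Arntl rose 4.98-fold (log2 2.32 ± 0.113, edgeR adjusted p = 7.54e-13). Arntl had the widest relative spread of the members at 30 min, with a coefficient of variation of 19.1% on 137 to 190 counts per library.

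The transcript estimates of Arntl also differed between groups. Arntl-201, the transcript of 20 exons, held 82.9, 82.4 and 86.2% of the TPM of the gene in the 3 PBS libraries. It held 35.4, 41.0 and 21.5% at 15 min, 27.5, 58.5 and 40.3% at 30 min and 95.4, 81.2 and 88.7% at 4 h. No library of the earlier times reached the share of any PBS or 4 h library. Arntl-203, a protein-coding transcript that starts within exon 1 of Arntl-201 and lacks its exons 3, 4 and 6, held 54.3, 36.7 and 58.4% at 15 min and 69.5, 35.9 and 40.5% at 30 min. Its share was 4.76, 0.00 and 6.95% in PBS and 0.00, 0.00 and 5.71% at 4 h. Within a library these shares rest on few fragments, 43 to 148 assigned to Arntl-201 at 15 and 30 min, and the shares were not tested. In TPM, Arntl-201 stood at 15.7, 17.3 and 16.5 in PBS, 2.92, 2.95 and 1.45 at 15 min and 0.882, 2.00 and 2.02 at 30 min. Arntl-203 stood at 0.899, 0.00 and 1.33 TPM in PBS, 4.48, 2.65 and 3.95 at 15 min and 2.23, 1.22 and 2.03 at 30 min. Its level was thus above PBS in each 15 min library and overlapped PBS at 30 min. These TPM carry no TMM factors. The exons that Arntl-203 lacks are exon 3 (113274626 to 113274753), exon 4 (113279457 to 113279582) and exon 6 (113283257 to 113283295) of chromosome 7 on GRCm38.

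The Per genes, repressors of the loop, differed among themselves at 4 h. Per1 (chromosome 11, 69095217 to 69109960, plus strand) had CPM of 77.8, 80.4 and 79.8 in PBS, 213, 217 and 209 at 15 min, 315, 327 and 305 at 30 min and 275, 259.5 and 262 at 4 h. All LPS libraries were above all PBS libraries, and the order of the groups, PBS, 15 min, 4 h and 30 min, held without overlap. Per1 was 2.68-fold higher at 15 min (log2 1.42 ± 0.0326, edgeR adjusted p = 2.16e-16), 3.98-fold at 30 min (log2 1.99 ± 0.0325, edgeR adjusted p = 4.40e-21) and 3.34-fold at 4 h (log2 1.74 ± 0.0333, edgeR adjusted p = 4.53e-20).

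Per2 (chromosome 1, 91415982 to 91459324, minus strand) had CPM of 21.1, 19.3 and 20.0 in PBS, 115, 121 and 115 at 15 min, 125, 127 and 116 at 30 min and 20.3, 16.6 and 21.7 at 4 h. The 15 min and 30 min libraries overlapped each other and were far above the rest, and the 4 h libraries overlapped PBS. Per2 had the largest rise of the members at both earlier times, 5.81-fold at 15 min (log2 2.54 ± 0.0594, edgeR adjusted p = 4.91e-18) and 6.09-fold at 30 min (log2 2.61 ± 0.0596, edgeR adjusted p = 9.24e-19). At 4 h its log2 fold change was -0.04 ± 0.0787, and with library totals alone it was -0.75 and passed the test (edgeR adjusted p = 0.0108).

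Per3 (chromosome 4, 151003652 to 151044665, minus strand), whose product has a lesser part in the core loop, had CPM of 48.7, 50.1 and 55.8 in PBS, 85.7, 86.5 and 87.9 at 15 min, 80.4, 79.3 and 80.1 at 30 min and 24.7, 25.8 and 24.8 at 4 h. The 4 groups did not overlap. At 15 min the log2 fold change was 0.75 ± 0.0458 (edgeR adjusted p = 0.00385), a call that was lost in DESeq2 with the same threshold (DESeq2 adjusted p = 0.127), in limma and with the transcript length offset. At 30 min it was 0.63 ± 0.0464 and did not pass (edgeR adjusted p = 0.560). At 4 h Per3 was lower than in PBS by 2.05-fold (log2 -1.04 ± 0.0567, edgeR adjusted p = 3.24e-08).

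The Cry genes encode the partners of the PER proteins. Cry1 (chromosome 10, 85131700 to 85185064, minus strand) had CPM of 11.8, 13.6 and 11.3 in PBS, 28.7, 27.4 and 29.0 at 15 min, 32.6, 32.1 and 32.7 at 30 min and 29.4, 30.3 and 30.8 at 4 h. Every LPS library was above every PBS library. The rise was 2.31-fold at 15 min (log2 1.21 ± 0.0697, edgeR adjusted p = 6.34e-08), 2.64-fold at 30 min (log2 1.40 ± 0.0697, edgeR adjusted p = 3.43e-10) and 2.46-fold at 4 h (log2 1.30 ± 0.0735, edgeR adjusted p = 1.11e-09). With library totals alone the value at 4 h was 0.59 and did not pass (edgeR adjusted p = 0.302).

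Cry2 (chromosome 2, 92403646 to 92434043, minus strand) was the only member called in none of the comparisons with PBS. Its CPM were 41.4, 42.1 and 42.0 in PBS, 64.3, 58.5 and 63.0 at 15 min, 61.4, 59.8 and 59.5 at 30 min and 39.9, 37.4 and 39.3 at 4 h. The libraries of both earlier times were above all of PBS, with log2 fold changes of 0.57 ± 0.0465 and 0.53 ± 0.0471 that lay under the 0.58 asked of a call. With no fold limit both were past the threshold (edgeR adjusted p = 1.09e-09 and 4.86e-09). At 4 h the value was -0.11 ± 0.0521, and -0.81 with library totals alone, which passed (edgeR adjusted p = 4.99e-05).

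Nr1d1 and Nr1d2, the nuclear receptors that repress Arntl, went apart. Nr1d1 (chromosome 11, 98767932 to 98775333, minus strand) had CPM of 206, 209 and 212 in PBS, 224, 226 and 237 at 15 min, 154, 156 and 150.2 at 30 min and 87.0, 74.9 and 82.7 at 4 h. The 4 groups did not overlap, 15 min lying just above PBS and 4 h lowest. The log2 fold changes were 0.13 ± 0.0353 at 15 min and -0.45 ± 0.0363 at 30 min, neither past the test, and -1.36 ± 0.0405 at 4 h (edgeR adjusted p = 3.46e-15), 2.57-fold lower. With no fold limit the changes of Nr1d1 at 15 and 30 min were past the threshold (edgeR adjusted p = 0.00484 and 9.04e-10). Of the 3077 exon bases of Nr1d1, 263 are shared with Thra, the thyroid hormone receptor alpha gene on the opposite strand. The kit kept no strand, so reads from these bases cannot be assigned to a gene by strand. In TPM, which carry no TMM factors, Thra stood at a mean of 145 in PBS, 107 at 15 min, 79.7 at 30 min and 33.5 at 4 h.

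Nr1d2 (chromosome 14, 18204054 to 18239127, minus strand) had CPM of 119, 113 and 132 in PBS, 202, 216 and 203 at 15 min, 206, 205 and 203 at 30 min and 151, 156 and 144 at 4 h. Both earlier groups overlapped each other above all other libraries, and 4 h lay between them and PBS without overlap. The rise was 1.70-fold at 15 min (log2 0.77 ± 0.0426, edgeR adjusted p = 0.000749) and 1.69-fold at 30 min (log2 0.75 ± 0.0428, edgeR adjusted p = 0.00161). Both calls were lost in limma on the deposited gene table plus 1 (limma adjusted p = 0.157 and 0.201), and that at 30 min also with library totals alone. At 4 h the value was 0.31 ± 0.0452, not past the test, and -0.39 with library totals alone.

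Dbp and Ciart are outputs of the loop. Dbp (chromosome 7, 45705088 to 45710203, plus strand) encodes a PAR bZIP factor that acts on D-boxes. Its CPM were 124, 126 and 129 in PBS, 269, 275 and 279 at 15 min, 242, 233 and 245 at 30 min and 21.8, 21.4 and 20.6 at 4 h. The groups did not overlap, both earlier ones lying above PBS and 4 h far below it. Dbp was 2.17-fold higher at 15 min (log2 1.12 ± 0.0295, edgeR adjusted p = 1.88e-13) and 1.90-fold at 30 min (log2 0.92 ± 0.0297, edgeR adjusted p = 4.57e-10). At 4 h it was 5.96-fold lower than in PBS (log2 -2.58 ± 0.0422, edgeR adjusted p = 2.19e-22) and 11.3-fold lower than at 30 min.

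The transcripts of Dbp shifted as well. The protein-coding Dbp-201 held 55.4, 60.9 and 62.5% of the TPM of the gene in PBS, 68.8, 71.3 and 66.7% at 15 min, 67.8, 70.9 and 73.5% at 30 min and 37.8, 41.6 and 33.6% at 4 h. Transcripts annotated with a retained intron held 27.1% to 34.5% in PBS, 19.7% to 22.01% at 15 min, 14.2% to 18.2% at 30 min and 48.4% to 59.0% at 4 h. The ranges of the 4 groups did not overlap, with 30 min lowest and 4 h highest, and were not tested. Dbp-201 had mean TPM of 85.6 in PBS, 207 and 151 at 15 and 30 min, and 5.85 at 4 h. The retained-intron Dbp-205 and Dbp-202 had 25.6 and 19.5 TPM in PBS and 2.71 and 5.75 at 4 h. Their share was thus higher at 4 h while their TPM were lower. These TPM carry no TMM factors. Of the 2993 exon bases of Dbp, 539 are shared with Sphk2, a sphingosine kinase gene on the opposite strand. The mean of Sphk2, again without TMM factors, was 17.2 TPM in PBS and 7.20 at 4 h.

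**Figure D2:**
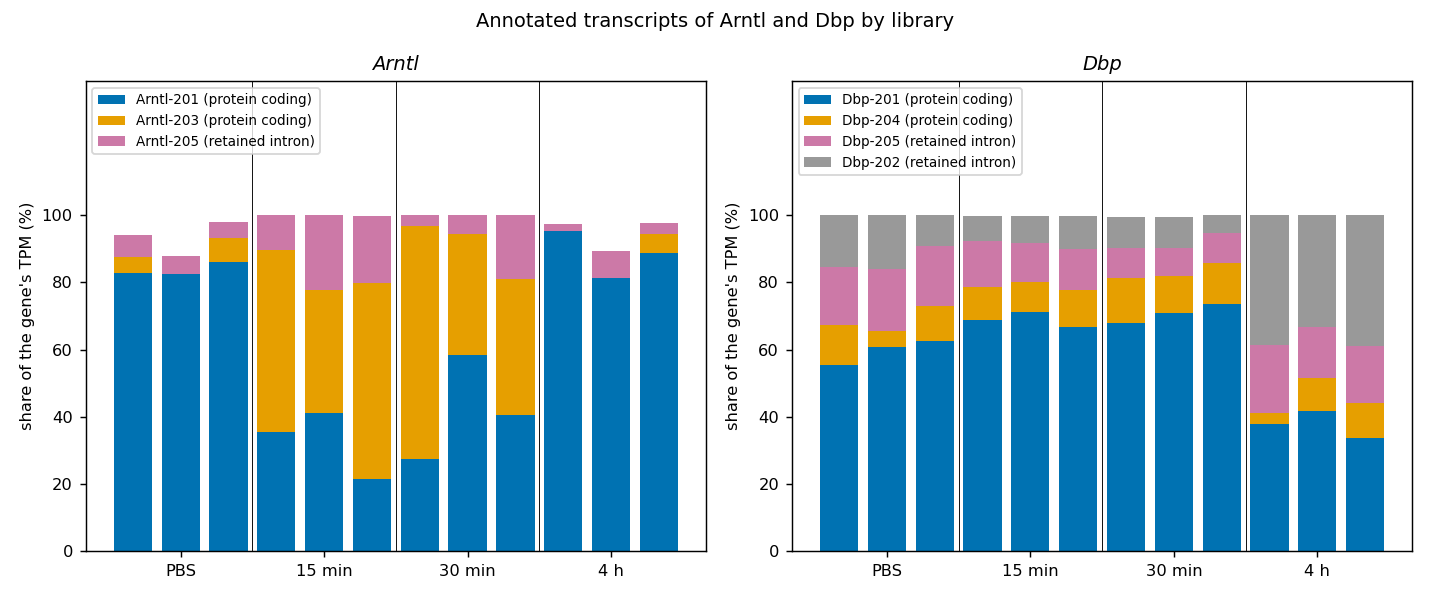
Stacked bars give, for each of the 12 libraries (3 per group), the percent of the summed TPM of Arntl (left) and Dbp (right) held by each annotated transcript with a mean share of at least 5%. Arntl-203 holds 35.9% to 69.5% at 15 and 30 min and at most 6.95% elsewhere, and the retained-intron transcripts of Dbp hold their largest share at 4 h.

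Ciart (chromosome 3, 95878503 to 95882251, minus strand), whose promoter window above holds 3 E-boxes, had CPM of 12.3, 11.7 and 11.6 in PBS, 58.4, 57.98 and 51.8 at 15 min, 54.2, 57.5 and 55.2 at 30 min and 9.94, 7.06 and 9.90 at 4 h. Both earlier groups overlapped each other far above PBS, and the 4 h libraries lay below PBS. Ciart was 4.72-fold higher at 15 min (log2 2.24 ± 0.0753, edgeR adjusted p = 1.23e-14) and 4.68-fold at 30 min (log2 2.23 ± 0.0759, edgeR adjusted p = 6.14e-15). At 4 h its log2 fold change of -0.41 ± 0.105 did not pass, and with library totals alone it was -1.12 and passed (edgeR adjusted p = 9.33e-06).

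**Figure D3:**
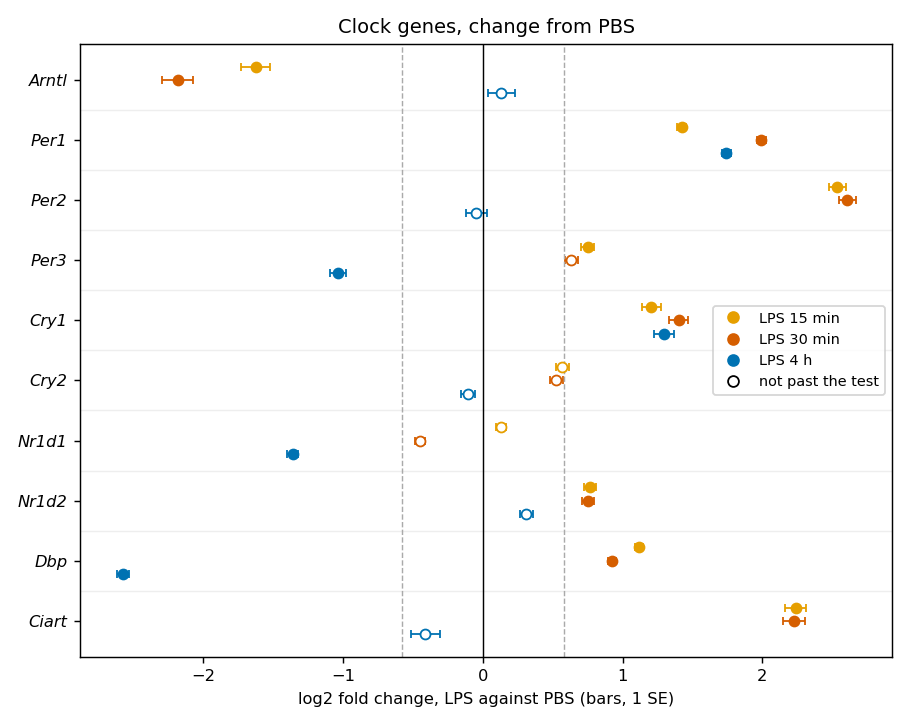
Log2 fold change of each clock gene from PBS at 15 min, at 30 min and at 4 h, with bars of 1 SE and dashed lines at the fold limit of 0.58 in both directions. Filled points passed the test. Per1 and Cry1 are filled and to the right at all 3 times. Per2, Per3, Cry2, Dbp and Ciart lie right of 0 at the earlier times and left of it at 4 h. Of these, only Per3 and Dbp are filled at 4 h.

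Between 15 and 30 min no member passed the threshold test in edgeR, and 0 of 10 had an unadjusted p under 0.05. DESeq2 with the same threshold and limma on the gene table also called 0, and scaling by library total alone called 1, Nr1d1. Of all genes, 2.77% were called higher and 1.99% lower at 30 min. With no fold limit, 2 members were higher at 30 min (Per1 and Cry1) and 4 lower (Arntl, Per3, Nr1d1 and Dbp), where 19.2% and 18.2% of all genes were called. The values nearest to the limit were those of Nr1d1 (-0.58 ± 0.0363), Per1 (0.57 ± 0.0302) and Arntl (-0.56 ± 0.121).

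Between 30 min and 4 h, Arntl rose and Per2, Per3, Nr1d1, Dbp and Ciart fell, while Per1, Cry1, Cry2 and Nr1d2 did not pass the test. With library totals alone, which put the median of all genes at -0.58, Arntl was higher and 8 members were lower. The added lower calls there were Per1 (log2 -0.79, edgeR adjusted p = 2.45e-07), Cry2 (log2 -1.17, edgeR adjusted p = 4.74e-11) and Nr1d2 (log2 -0.98, edgeR adjusted p = 3.98e-09). Cry2 was also lower with the transcript length offset (log2 -0.72, edgeR adjusted p = 0.0289). With TMM, 17.0% of all genes were called higher and 11.9% lower. The falls were -3.50 on the log2 scale for Dbp, -2.65 for Per2, -2.64 for Ciart, -1.67 for Per3 and -0.91 for Nr1d1, with edgeR adjusted p values from 1.21e-25 to 3.52e-08. For Per1 the difference was -0.25 ± 0.0308 and for Cry1 -0.10 ± 0.0679. The median of the members was -0.77, against -0.04 over all genes.

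Ratios of counts between members within a library do not depend on how libraries are scaled to each other. The log2 ratio of Dbp to Arntl was 2.00 ± 0.08 (SD, n = 3) in PBS, 4.75 ± 0.24 at 15 min, 5.12 ± 0.25 at 30 min and -0.71 ± 0.11 at 4 h. It was thus above 0 in all libraries of PBS and the earlier times and below 0 in all 3 libraries of 4 h. The ratio of Per2 to Arntl was -0.66 ± 0.15 in PBS, 3.52 ± 0.23 at 15 min, 4.15 ± 0.33 at 30 min and -0.84 ± 0.17 at 4 h, where its libraries overlapped those of PBS. The ratio of Per1 to Arntl was 1.32 ± 0.06 in PBS, 4.39 ± 0.21 at 15 min, 5.51 ± 0.30 at 30 min and 2.93 ± 0.09 at 4 h. That of Nr1d1 to Arntl was 2.72 ± 0.08, 4.49 ± 0.25, 4.47 ± 0.29 and 1.23 ± 0.12 in the same order. Within gene pairs, Per1 to Per2 was 1.98 ± 0.09 in PBS and 3.77 ± 0.19 at 4 h, lowest at 15 min with 0.87 ± 0.02. Cry1 to Cry2 went from -1.77 ± 0.14 in PBS through -1.13 ± 0.04 and -0.89 ± 0.03 to -0.36 ± 0.07 at 4 h. Nr1d1 to Nr1d2 went from 0.79 ± 0.10 through 0.15 ± 0.08 and -0.42 ± 0.02 to -0.89 ± 0.15, and in both of these pairs no group overlapped another.

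**Figure D4:**
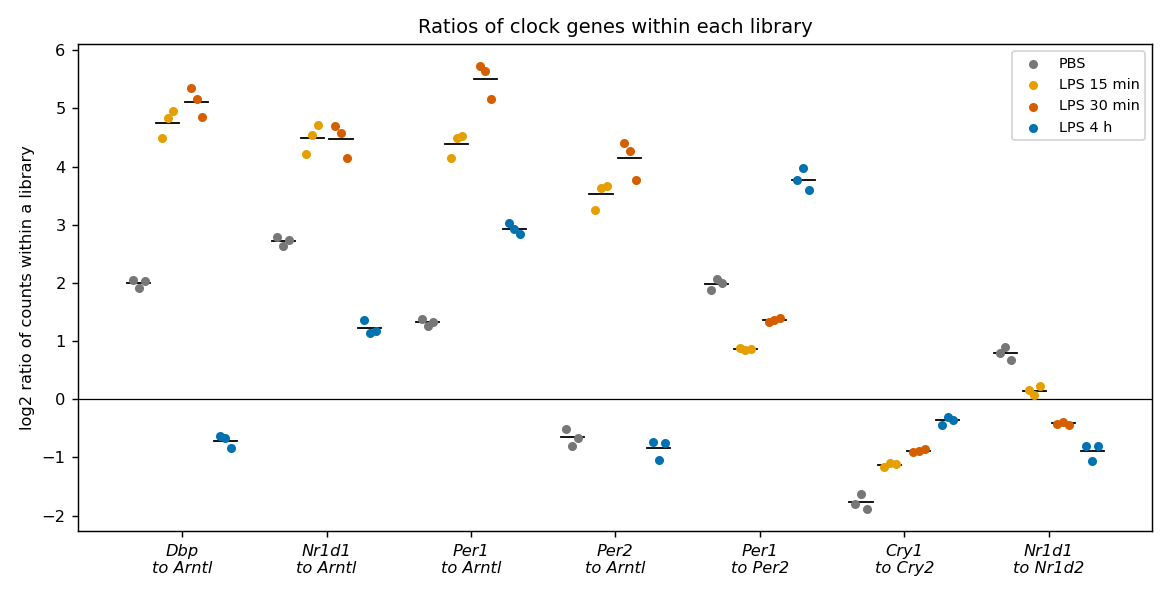
Log2 ratio of the counts of pairs of clock genes within each library (points, 3 per group) with the group mean (lines). The ratio of Dbp to Arntl lies between 4.48 and 5.35 at 15 and 30 min and between -0.83 and -0.63 at 4 h.

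Compared per length, in TPM, the members ranked differently from group to group. In PBS, Dbp (144 TPM) and Nr1d1 (137) had the highest mean levels, then Nr1d2 (52.1) and Per1 (28.4). Arntl (19.7), Per3 (19.2), Cry2 (18.3) and Ciart (16.7) followed, each overlapping its neighbour in this order, and Cry1 (6.92) and Per2 (5.53) were lowest. At 30 min, Dbp (213 TPM) was again highest, Ciart stood at 63.7 and Per2 at 27.2, and Arntl (3.88) was lowest. At 4 h, Per1 (49.9 TPM) led, followed by Nr1d2 (34.5), Nr1d1 (28.5), Dbp (15.5) and Arntl (11.3), none of these 5 overlapping another, and Per2 was lowest at 2.84.

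The wider clock list of 26 genes, which holds partners, receptors, kinases, cofactors and outputs of the loop, all passed the filter. At 15 min 4 of them were higher and 0 lower, at 30 min 5 were higher and 0 lower, and at 4 h 8 were higher and 2 lower. Over the list the median change on the log2 scale was 0.10, 0.02 and 0.37 at the 3 times. With library totals alone, the split at 4 h was 6 higher and 10 lower. The shares of all genes called with that scaling are not given here. Read against the shares of all genes given above, 4 and 5 of 26 stood above the background of higher calls. At 4 h the 8 higher of 26 were above it and the 2 lower of 26 below that of lower calls. This list too was chosen with earlier results of these data known, so the counts are a description only. Between 15 and 30 min 2 genes of the list were higher and 0 lower, beside 2.77% and 1.99% of all genes. Between 30 min and 4 h 7 were higher and 2 lower, beside 17.0% and 11.9% of all genes, and library totals alone gave 5 and 9. In the lower direction, 0 genes of the list at 15 min and 1 at 30 min, Npas2, had an unadjusted p under 0.05 in edgeR, and DESeq2 and limma with the same threshold called 0 at both times. Library totals alone called 0 lower at 15 min and 1 at 30 min, Npas2, and with no fold limit 4 were lower at 15 min and 3 at 30 min. Between 15 and 30 min 0 had such a p in the lower direction.

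In the positive limb, Clock, the partner of Arntl, was named outside the rule for named genes after its values were seen. Its CPM were 69.2, 65.4 and 67.0 in PBS, 53.4, 57.5 and 53.1 at 15 min, 59.0, 57.8 and 49.6 at 30 min and 58.1, 59.0 and 54.98 at 4 h, and its log2 fold changes of -0.30 ± 0.0549, -0.28 ± 0.0555 and -0.23 ± 0.0582 did not pass. With library totals alone the change of Clock at 4 h was -0.93 and passed (edgeR adjusted p = 1.2e-06). Npas2, which can stand in for Clock, had 12.05 to 12.6 CPM in PBS and rose to 24.5 to 30.7 at 4 h (log2 1.12 ± 0.108, edgeR adjusted p = 2.15e-05), a call lost with library totals alone (log2 0.42) and in limma. Of the bHLH repressors, Bhlhe40, which competes for E-boxes, had 57.6 to 59.7 CPM in PBS and rose to 143 to 151 at 15 min, 269 to 282 at 30 min and 291 to 295 at 4 h. Its log2 fold changes were 1.31 ± 0.0322, 2.23 ± 0.0318 and 2.32 ± 0.0324, and the difference of 0.92 ± 0.0294 between 15 and 30 min also passed.

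The other PAR bZIP factors, Tef and Hlf, had log2 fold changes of the same sign as Dbp at each time. Tef had 158 to 168 CPM in PBS, 310.5 to 319.9 at 15 min, 288 to 293 at 30 min and 62.0 to 63.1 at 4 h, with log2 fold changes of 0.93 ± 0.0278, 0.83 ± 0.0279 and -1.39 ± 0.0333 that all passed. Hlf was higher at 15 min (log2 0.71 ± 0.0429, edgeR adjusted p = 0.0152) and lower at 4 h (log2 -1.21 ± 0.0541, edgeR adjusted p = 5.65e-11), with 0.61 ± 0.0434 at 30 min, which did not pass. The call of Hlf at 15 min was lost without PBS library 2 (edgeR adjusted p = 0.0673), without 15 min library 3 (edgeR adjusted p = 0.0820), in DESeq2 (DESeq2 adjusted p = 0.520), in limma and with the transcript length offset. Nfil3, a repressor that acts on the same D-boxes, had 5.26 to 6.34 CPM in PBS, 4.33 to 7.10 at 15 min, 5.18 to 6.46 at 30 min and 71.4 to 82.2 at 4 h. It was 12.8-fold higher at 4 h (log2 3.68 ± 0.117, edgeR adjusted p = 2.23e-17), when Dbp, Tef and Hlf were all lower than in PBS.

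Among the kinases and the genes of protein turnover, Csnk1d, whose kinase phosphorylates PER proteins, was higher at 4 h (log2 0.93 ± 0.0321), a call lost with library totals alone (log2 0.23). Fbxw11, which encodes a ubiquitin ligase subunit, was higher at 4 h (log2 1.57 ± 0.0353). Usp2, a deubiquitinase gene, was higher at 30 min (log2 0.99 ± 0.0534, edgeR adjusted p = 5.37e-07), a call lost with the transcript length offset and in limma. Of the cofactors, Timeless had 30.9 to 32.7 CPM in PBS and rose to 242 to 257 at 4 h (log2 2.97 ± 0.0433). Of the outputs, Noct, which encodes nocturnin, had 118 to 125 CPM in PBS, 143 to 149 at 15 min, 386 to 401 at 30 min and 1969 to 2006 at 4 h, a 16.4-fold rise (log2 4.04 ± 0.0274, edgeR adjusted p = 2.27e-30). Wee1, a cell cycle kinase gene, was higher at all 3 times, with log2 fold changes of 1.71 ± 0.0855, 2.09 ± 0.0844 and 2.78 ± 0.0842.

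**Figure D5:**
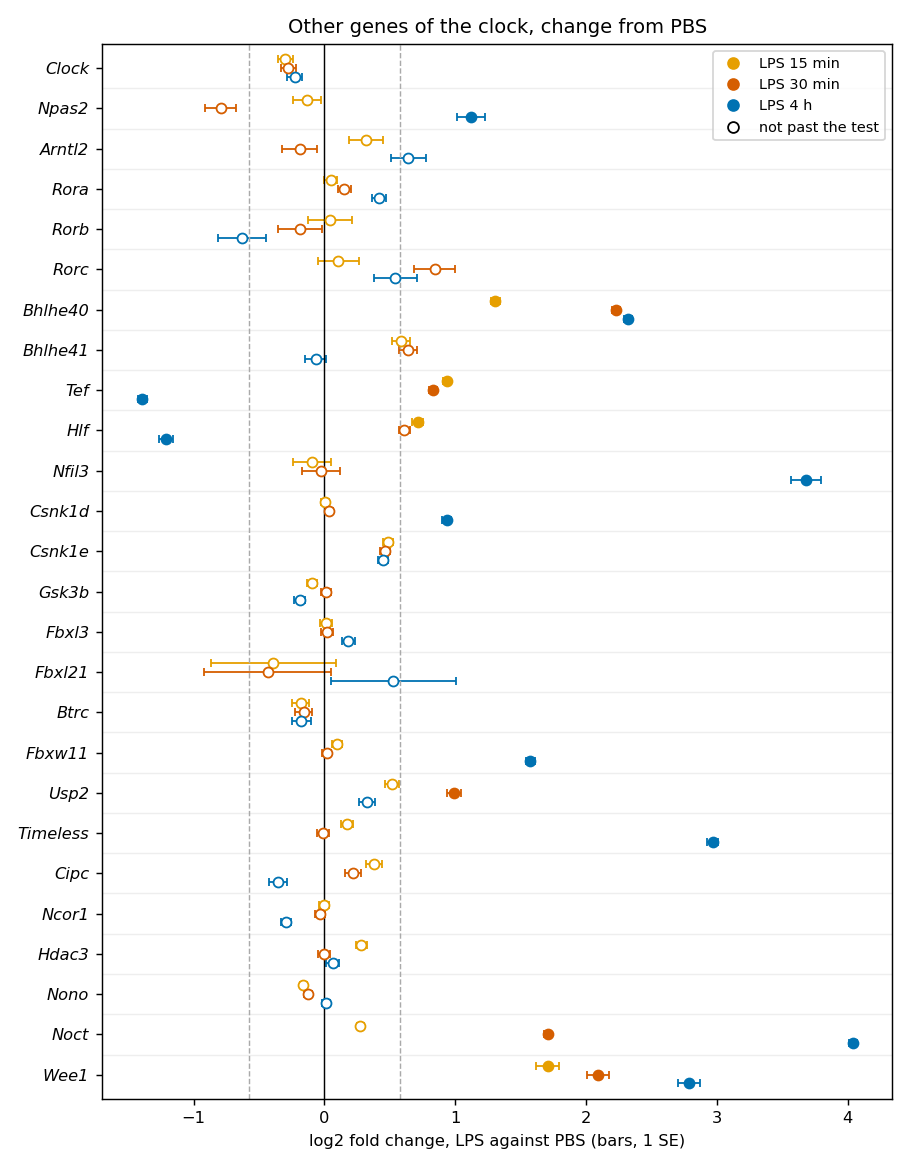
Log2 fold change of the 26 genes of the wider clock list from PBS at 15 min, at 30 min and at 4 h, with bars of 1 SE, filled points for those past the test and dashed lines at the fold limit of 0.58. Noct and Nfil3 lie farthest to the right at 4 h. Tef and Hlf, the only genes filled to the left at 4 h, lie right of 0 at the earlier times.

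Likeness of pattern was described by Pearson's r of log2 CPM over the 12 libraries, among genes with a mean of at least 5 CPM. The libraries form 4 groups of 3 and share the same scaling, so r mostly follows the 4 group means. The genes most like Arntl were Pdgfrb (r = 0.977), Serinc5 (0.976) and Plekhg1 (0.969), whose changes were smaller. Pdgfrb, the pericyte receptor for platelet-derived growth factor, had mean CPM of 265 in PBS, 209 at 15 min, 192 at 30 min and 274 at 4 h. Against PBS, 0 of the 5 pericyte markers, Pdgfrb among them, were called at any time. These markers summed to 3476 to 3549 CPM in PBS and 3700 to 3724 at 15 min, where the mean of Pdgfrb was lower. The sum was 3426 to 3447 CPM at 30 min and 3261 to 3375 at 4 h. A link between Arntl and pericytes was not tested. The genes most like Per1 were Junb (0.998), Dusp8 (0.995) and Zfp36 (0.994), of which Junb is an immediate early gene and Zfp36 encodes an mRNA decay factor. Junb had mean CPM of 49.6, 457, 1403 and 861 in the same order of groups. Dbp was most like Mfsd2a (0.998), B4galt4 (0.998) and N4bp3 (0.997). Mfsd2a, the lipid transporter of the blood-brain barrier endothelium, had mean CPM of 106 in PBS, 202 at 15 min, 184 at 30 min and 28.0 at 4 h. Among the genes most like Nr1d1 were Coro7 (0.993) and Hhex (0.992), and Hhex had mean CPM of 32.0 in PBS and 9.21 at 4 h.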

How the data were processed

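RNA of cerebral vessels of the mouse forebrain was measured in 12 libraries, grouped by the treatment in the sample records. Per the labels, libraries were made with the SMART-Seq v4 and Nextera XT kits, which keep no strand. The authors quantified transcripts with Salmon 1.2.1 against GRCm38.p6 and brought them to genes with tximport and DESeq2. The deposited transcript files hold estimated counts, which are not normalized, and TPM, which the authors scaled for length to a constant sum per library. The deposited gene table holds a signal, namely gene counts after division by the size factors of DESeq2 and by factors for transcript length.

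Transcripts were joined to GENCODE M21 (139852 of 140948), and the rest, 0.482% to 0.850% of fragments, were left out. Estimated counts were summed per gene and rounded. The filter filterByExpr (minimum count 10) kept 19150 genes. In edgeR 4.0.16 a quasi-likelihood fit with TMM factors was made on the 12 libraries together, and glmTreat tested changes beyond 0.58 (log2) in the 5 comparisons. As SE, the absolute log2 fold change over the root of its quasi-likelihood F was taken. The common biological coefficient of variation was 0.0524. The steps were tested on simulated data, drawn from the PBS means with equal numbers of genes raised and lowered. Those data hold no shift in scaling like that at 4 h, so the scaling there was not tested by them. The p-values measure the spread between pools of mice. Libraries of different groups share numbers, but deviations of same-numbered libraries correlated at -0.049 to 0.070 over 18 pairs, so numbers were not taken as pairing. Alternatives were DESeq2 1.42.0, RLE factors, library totals alone, no filter, no fold limit, a transcript length offset, fits on 2 groups, a replicate block, limma 3.58.1 on the gene table plus 1 or 10, and leaving out each library. Tables and plots were made in Python 3.11.15 with pandas 2.3.3, numpy 2.4.6 and matplotlib 3.10.9.

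The members, the wider clock list, the marker lists and the alternatives were chosen with earlier results of these data known. Genes named are the 10 members, genes of the wider list past the threshold in 1 or more comparisons with PBS, and the 3 genes most like each of Arntl, Per1, Dbp and Nr1d1. One of these genes is not reported here. Marker lists are given as sums. Clock and single genes named for an overlap on the opposite strand lie outside this rule. Transcript shares, ratios and motif matches are descriptions without a test.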

Additional observations from a re-analysis of the deposited data

Results flagged for a closer look

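Because the comparisons with PBS share their controls, a difference between LPS times was read from the same fit, and the genes below are those of the members and of the named wider list for which it passed the test. Between 15 and 30 min, no member passed the test against the fold limit, and Bhlhe40 (log2 0.92) and Noct (1.43) were higher at 30 min. With no fold limit, 2 members were higher and 4 lower, where 19.2% and 18.2% of all genes were called. Between 30 min and 4 h, 6 members passed the test: Arntl was higher by 2.32 on the log2 scale at 4 h, and Per2 (-2.65), Per3 (-1.67), Nr1d1 (-0.91), Dbp (-3.50) and Ciart (-2.64) were lower. Of all genes, 17.0% were called higher and 11.9% lower, so 1 higher of 10 was under the share of all genes and 5 lower of 10 above it. With library totals alone Per1, Cry2 and Nr1d2 were lower too, 8 lower members in all. The share of all genes called with that scaling is not given here. Of the wider list, Npas2 (1.92), Nfil3 (3.71), Csnk1d (0.90, a call lost with library totals alone), Fbxw11 (1.56), Timeless (2.98) and Noct (2.33) were higher at 4 h, and Tef (-2.22) and Hlf (-1.82) were lower. The time of day at each of these times is not stated, so the time after LPS and the time of day cannot be told apart. Groups of 3 libraries were not searched for outlying libraries.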

How the results depend on the processing

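The total number of members called changed by more than 1.5 times only between 15 and 30 min, from 0 to 1 with library totals alone and to 6 with no fold limit. The split by direction moved more: with library totals alone 1 member was higher and 6 lower at 4 h (against 2 and 3), and 1 higher and 8 lower between 30 min and 4 h (against 1 and 5). With no fold limit the latter split was also 1 and 8, and with the transcript length offset 1 and 6. For the wider list, no fold limit gave 16 calls at 15 min (main count 4), 14 at 30 min (5), 22 at 4 h (10), 12 between 15 and 30 min (2) and 20 between 30 min and 4 h (9), and library totals alone gave 16 at 4 h (6 higher, 10 lower) and 14 between 30 min and 4 h (5 higher and 9 lower, against 7 and 2). Leaving out each library kept the members called at 8, 7, 5, 0 and 6 in the 5 comparisons, and the wider list ran from 3 to 4 at 15 min and from 8 to 9 between 30 min and 4 h, with no change in the others (5, 10 and 2). With a replicate block, the members called were 8, 7, 5, 0 and 6 and the wider list 4, 5, 10, 2 and 9 in the 5 comparisons, and the block changed no call. Over the 50 values of the members, 463 of 500 alternatives kept direction and side of the threshold, 24 passed it newly, 10 lost it and 3 changed sign, all 3 with library totals alone: Arntl at 4 h (-0.57), Nr1d2 at 4 h (-0.39) and Per2 between 15 and 30 min (-0.0705). Without 1 library, 5 of 300 values changed sign and no call changed: Per2 at 4 h ran from -0.13 to 0.0656, and between 15 and 30 min Nr1d2 ran from -0.0346 to 0.0148 and Ciart from -0.0662 to 0.0197. The calls lost by members were Per3 at 15 min, Cry1 at 4 h and Nr1d2 at 15 and 30 min. The cause of these changes was not tested. Except for no fold limit between 15 and 30 min, the shares of all genes called under these other settings are not given here. The counts of calls under them are thus not set against a background. Depth limits Arntl and Ciart most, with as few as 137 and 106 counts in a library, and the transcript shares of Arntl rest on fewer still.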
